A study of Homo sapiens with 4 samples.

Results

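The 10 genes described here encode inflammasome components and pyroptosis proteins, and they were chosen by name as parts of 1 pathway. The choice applied no threshold to their values, but earlier results of these data were known when it was made. They are the sensors NLRP3, NLRC4, AIM2, NAIP and NLRP12, the adaptor PYCARD, the caspases CASP1 and CASP4, the pore protein GSDMD and the cytokine IL18. The deposited table held 9 of the 10 among its 18885 genes, and AIM2 was not analysed here. The RNA came from MV4-11, an established cell line of human acute myeloid leukaemia (AML), and 2 libraries were made for NC and 2 for sh-ANP32B. The labels describe the NC cells as carrying no shRNA, whereas the methods of the study name an sh-NC control. The sh-ANP32B cells carried an shRNA against ANP32B, delivered by lentivirus and selected with puromycin, and the names of their columns hold the mark S3. If the NC cells carried no vector, an effect of transduction and selection cannot be told apart from one of the knockdown.

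An inflammasome is a cytosolic protein complex that forms when a sensor meets a danger signal. The sensor recruits the adaptor PYCARD, also called ASC, which gathers and activates caspase-1. Caspase-1 cuts the precursors of IL-1β and IL-18 into their active forms and cuts gasdermin D, whose freed end makes pores in the plasma membrane and causes the lytic death named pyroptosis. Monocytes and macrophages are known for carrying much of this machinery. Its activation takes place at the level of protein. The mRNA levels show which of the transcripts are present, and neither the amount of protein nor whether the complex has formed.

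The values are TPM, in which reads are divided by gene length and each library is brought to a common sum. They can therefore be compared between genes within a library. Between libraries they also depend on what the other genes do, and the 10 highest genes held between 12.8% and 13.3% of the TPM in NC and 14.8% in both sh-ANP32B libraries. The number of reads behind them is unknown, and a counting error could not be attached. The 4 libraries summed to between 997271 and 998546 TPM. ANP32B itself had 358 and 364 TPM in NC against 54.1 and 49.3 TPM in sh-ANP32B. FLT3, MEIS1, HOXA9 and CD33, markers of these cells, were all listed, and MPO was not analysed here. MEIS1 was lower beyond the log2 fold limit of 0.5 used here, from 44.2 and 47.9 TPM in NC to 30.2 and 29.6 TPM in sh-ANP32B (log2 fold change -0.61, limma, adjusted p = 0.00138). CD33 was higher inside that limit (0.40, limma, adjusted p = 0.003), and FLT3 (-0.15, limma, adjusted p = 0.383) and HOXA9 (-0.07, limma, adjusted p = 0.155) did not pass. Their part in the members' values was not tested. Of the other marker lists, 0 of 3 erythroid and 1 of 4 T-cell genes were listed. The T-cell gene was CD2, with 0.521 and 0.442 TPM in NC and 3.62 and 3.63 TPM in sh-ANP32B. It was higher beyond that limit (log2 fold change 1.64, limma, adjusted p = 0.00172). Of 3 NK-cell genes, NCAM1 and NKG7 were listed and summed to between 115 and 126 TPM. They moved in opposite directions, both inside that limit. The log2 fold change was 0.21 for NCAM1 (limma, adjusted p = 0.0217) and -0.30 for NKG7 (limma, adjusted p = 0.00919). The mitochondrial share ranged from 15.4% to 15.9% of the TPM in NC and from 17.4% to 17.6% in sh-ANP32B.

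After ANP32B knockdown NLRC4, NLRP12, CASP4 and IL18 were called higher, where 17.9% of all genes tested were, and of these IL18 alone kept its call with any of the 4 libraries left out. Both sh-ANP32B libraries lay above both NC libraries for each of the 9 listed genes, a pattern that 42.5% of all genes tested showed, while 32.1% showed the opposite one. For each of 16937 genes, limma compared the groups on log2(TPM + 1), and a gene was called at a Benjamini-Hochberg adjusted p below 0.05 with a log2 fold change beyond 0.5. Of the 8 members that passed the filter of 1 TPM in at least 2 libraries, these 4 were called higher. In limma 0 were called lower, against 10.1% of all genes, and 0 were lower at an unadjusted p below 0.05. The log2 fold change was positive for 8 of 8, as it was for 56.3% of all genes tested. Of the 4 calls, that of IL18 alone remained after quantile normalization. Without NC-1 the log2 fold change of NLRP12 was 0.48, and without sh-ANP32B-2 that of CASP4 was 0.31, both inside the fold limit. On the adjusted p alone, 7 of the 8 passed, against 26.0% of all genes, with CASP1 as the exception. The median log2 fold change of the 8 was 0.52, with a range from 0.22 to 0.65, beside a median of 0.08 over all genes tested. As the libraries came from whole cultures, a larger share of cells with these transcripts and more transcripts per cell cannot be told apart. The methods speak of independent repeats for experiments in general, but no source says that these 2 libraries of a group came from separate cultures, so the p-values may measure technical spread only.

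**Figure D1:**
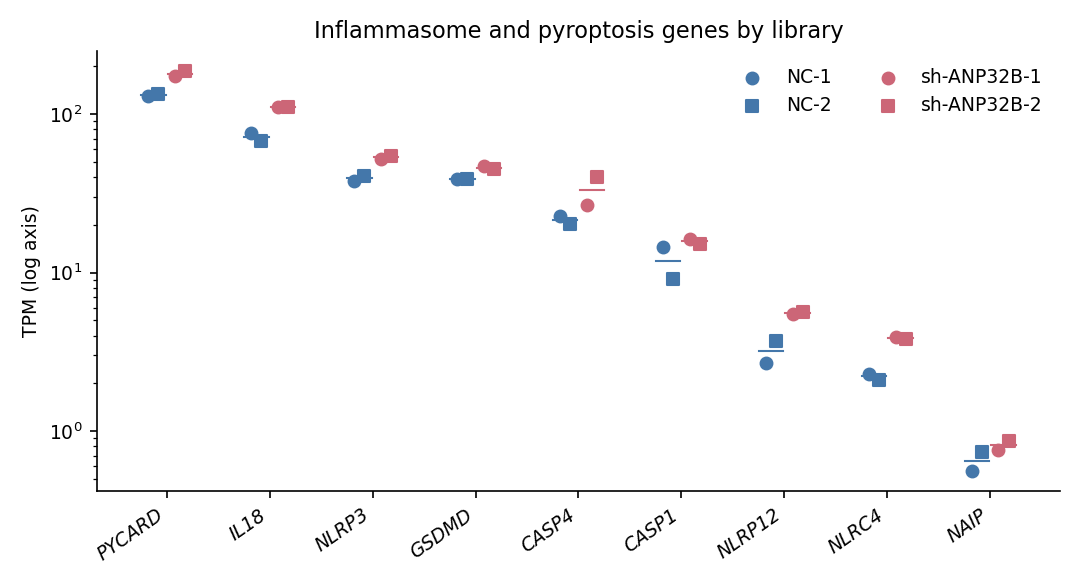
TPM on a log axis for the 9 listed genes in each library, with blue points for NC, red points for sh-ANP32B and a short line at each group mean. Both red points lie above both blue points for every gene, from PYCARD at 129 to 187 TPM down to NAIP at 0.562 to 0.860 TPM.

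The levels of the 9 transcripts covered a wide range. In NC the order by mean TPM was PYCARD (131), IL18 (71.4), NLRP3 (39.3), GSDMD (39.1), CASP4 (21.4), CASP1 (11.9), NLRP12 (3.19), NLRC4 (2.21) and NAIP (0.652). Only NLRP3 and GSDMD overlapped as neighbours in this order. In sh-ANP32B the order was the same, and no neighbours overlapped. Among these genes the adaptor was the most abundant transcript in each library, and the sensors of bacterial proteins were the least abundant.

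NLRP3, the sensor of potassium efflux and of many other forms of cell stress, was the main sensor transcript among the members. On hg38, NLRP3 (ENSG00000162711) spans 247416156 to 247449108 of chromosome 1 on the plus strand, and its canonical transcript has 10 exons. It had 37.8 and 40.9 TPM in NC and 52.2 and 54.2 TPM in sh-ANP32B. The groups did not overlap, and the means were 39.3 ± 2.19 TPM (SD, n = 2) and 53.2 ± 1.38 TPM (SD, n = 2). The log2 fold change was 0.43, with a 95% interval from 0.27 to 0.59 (limma, adjusted p = 0.00403), which is inside the fold limit of 0.5. The current annotation places a lncRNA gene, ENSG00000289728, on the same strand, and it holds 66% of the exonic bases of NLRP3. That gene was not analysed here, and reads from it could have been counted for NLRP3.

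NLRC4 and NLRP12 were called higher, both at levels of a few TPM. NLRC4 (ENSG00000091106), which joins NAIP in sensing bacterial flagellin and secretion systems, lies on the minus strand of chromosome 2 from 32224453 to 32265732. It had 2.31 and 2.12 TPM in NC and 3.95 and 3.83 TPM in sh-ANP32B. These groups lay well apart for so low a level, and the log2 fold change was 0.61 (standard error 0.17, limma, adjusted p = 0.0314). NLRP12 (ENSG00000142405), a member of the same receptor family best described as a regulator of inflammation, lies on the minus strand of chromosome 19 from 53793741 to 53824403. It had 2.69 and 3.69 TPM in NC and 5.49 and 5.60 TPM in sh-ANP32B. The NC libraries differed more from each other than the knockdown libraries did, and the log2 fold change was 0.65 (standard error 0.18, limma, adjusted p = 0.0313). Neither call was firm. The adjusted p of NLRC4 in limma was between 0.0818 and 0.12 without any of the 4 libraries in turn. For NLRP12 it was 0.115 without NC-1, with a log2 fold change of 0.48, and 0.0905 and 0.101 without either sh-ANP32B library, at 0.67 and 0.64. After quantile normalization NLRC4 was at 0.35 (adjusted p = 0.141) and NLRP12 at 0.42 (adjusted p = 0.0903), both from limma. NLRC4 shares 2128 exonic bases with ENSG00000289727, a lncRNA gene on the opposite strand that was not analysed here, and the strand setting of the quantification is not given.

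The bases before the start sites of these 2 called sensors are shown as far as they are free of annotated exons. They hold the letters of a myeloid motif. PU.1 is a myeloid transcription factor whose binding site contains the letters GAGGAA. RefSeq promoters on GRCh38.p14 were searched for 6 of the 10 members, with 8 start sites in all. Windows of the remaining members were not searched, and the motif counts do not cover them. The 250 bases before each start were searched on both strands for GAGGAA, for an interferon-response core (GAAA, any 2 bases, GAAA), for an NF-kB core (GGGA, any 2 bases, TTCC) and for the C/EBP core TTGCNNAA. In the stretches below the motifs found are in capitals, and a match on the opposite strand is written as read in the direction of the gene. The part of the NLRP12 window that overlaps an annotated exon is left out, and no annotated exon lies within what is shown.
NLRC4, chr2:32265744-32265993, minus strand: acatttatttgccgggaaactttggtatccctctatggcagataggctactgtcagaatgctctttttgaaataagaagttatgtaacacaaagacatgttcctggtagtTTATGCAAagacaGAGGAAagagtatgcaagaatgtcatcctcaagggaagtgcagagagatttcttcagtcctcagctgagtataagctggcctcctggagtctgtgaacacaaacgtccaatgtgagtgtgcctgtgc
NLRP12, chr19:53824404-53824564, minus strand: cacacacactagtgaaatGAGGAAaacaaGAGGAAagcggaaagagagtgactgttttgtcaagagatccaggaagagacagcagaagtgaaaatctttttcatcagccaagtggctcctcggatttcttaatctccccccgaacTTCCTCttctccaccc
The NLRC4 stretch holds GAGGAA at 1 place beside a C/EBP core, and the NLRP12 stretch holds it at 3 places. Over the 8 windows GAGGAA was found in 5, belonging to NLRC4, NLRP12, NLRP3 and PYCARD, and 2 of the NLRC4 windows share the same match. Of these genes NLRP3 and PYCARD were not called, and the window of CASP4, which was called, held none of the motifs searched. Of 35116 RefSeq promoter windows of the same length, 23.6% hold these letters. The interferon-response core was found in 1 window, that of AIM2, against 3.02% of all windows. The C/EBP core was found in 2 windows, those of NLRC4 and NLRP12, against 9.05%. The NF-kB core was found in 0, against 1.4% of all windows. A match is a description of letters and shows no binding.

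NAIP, the receptor that hands bacterial ligands to NLRC4, was close to the lowest level the table holds. NAIP (ENSG00000249437) lies on the minus strand of chromosome 5 from 70968166 to 71025339. It had 0.562 and 0.742 TPM in NC and 0.765 and 0.860 TPM in sh-ANP32B, and no library reached the 1 TPM needed for the test. Without the filter its log2 fold change was 0.14 (standard error 0.22, limma, adjusted p = 0.668). The value is uncertain for another reason, since 42.3% of its 50-base words also occur in other annotated genes. NAIPP2 holds 33.6% of them and NAIPP4 holds 26.4%. The pseudogene NAIPP4 was listed at 0.709 and 0.793 TPM in NC and at 0.872 and 0.916 TPM in sh-ANP32B, about the level of NAIP itself.

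PYCARD, the adaptor that joins sensors with a pyrin domain to caspase-1, was higher by about the same factor as NLRP3. PYCARD (ENSG00000103490) lies on the minus strand of chromosome 16 from 31201486 to 31203450, with 3 exons in its canonical transcript. It had 129 and 134 TPM in NC and 173 and 187 TPM in sh-ANP32B, and these groups did not overlap. The log2 fold change was 0.45, with a 95% interval from 0.32 to 0.59 (limma, adjusted p = 0.0018), inside the fold limit. Without sh-ANP32B-1 it was 0.51 (limma, adjusted p = 0.00218) and past that limit. The ratio of PYCARD to NLRP3 within a library was 3.41 and 3.27 in NC and 3.30 and 3.46 in sh-ANP32B, so the groups overlapped. PYCARD-AS1, on the opposite strand, covers 59.7% of the exonic bases of PYCARD and was not analysed here.

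**Figure D2:**
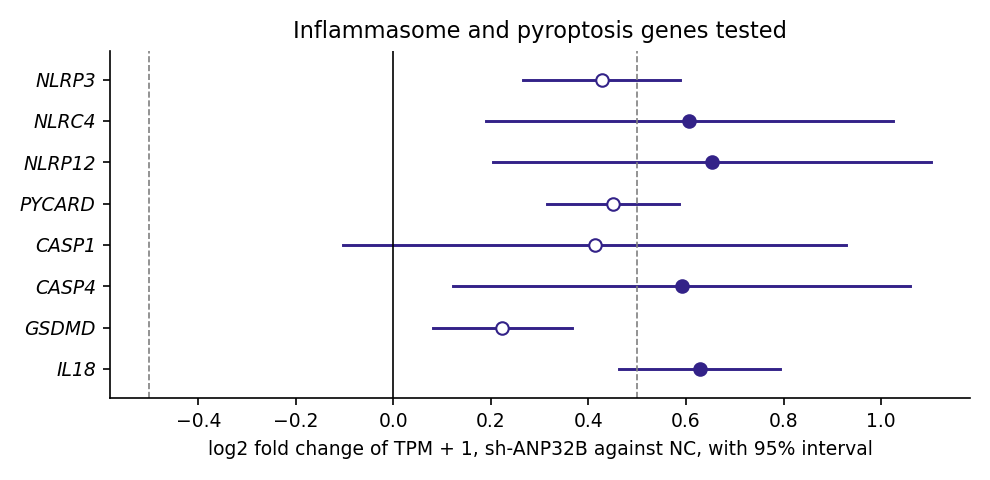
Log2 fold change of TPM + 1, sh-ANP32B against NC, for the 8 tested genes, with limma's 95% interval as a line, filled points for called genes and dashed lines at the fold limit of 0.5 in each direction. All 8 points lie right of 0, from 0.22 for GSDMD to 0.65 for NLRP12, and the interval of CASP1 alone includes 0.

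Both inflammatory caspases were less certain than the adaptor, and in each the result moved when 1 library was left out. CASP1 (ENSG00000137752), the protease that inflammasomes activate, lies on the minus strand of chromosome 11 from 105025397 to 105035250. It had 14.5 and 9.16 TPM in NC and 16.3 and 15.2 TPM in sh-ANP32B. The NC libraries differed from each other by more than NC-1 differed from either knockdown library. The log2 fold change was 0.41, with a 95% interval from -0.10 to 0.93 (limma, adjusted p = 0.157), so no change was detected and one beyond the fold limit was not excluded. It was 0.72 (limma, adjusted p = 0.0135) without NC-1, and 0.11 (limma, adjusted p = 0.537) without NC-2. CASP4 (ENSG00000196954), the caspase that binds bacterial lipopolysaccharide directly, lies on the same strand from 104942866 to 104969366. It had 22.6 and 20.2 TPM in NC and 26.7 and 40.0 TPM in sh-ANP32B. The knockdown libraries stood above NC but far from each other, and the log2 fold change was 0.59 (standard error 0.19, limma, adjusted p = 0.0486). Without sh-ANP32B-2 it was 0.31 (limma, adjusted p = 0.0884), and without sh-ANP32B-1 it was 0.87 (limma, adjusted p = 0.00306). Without NC-1 or NC-2 it was 0.67 and 0.51, with adjusted p = 0.0827 and 0.149 from limma, and median-of-ratios scaling gave 0.50 (adjusted p = 0.0829).

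CARD16, a neighbour of CASP1 that encodes little more than a caspase recruitment domain and can bind caspase-1, bears on how reads were assigned. The first 120 coding bases of the canonical transcripts in GENCODE version 44 are shown, with the bases that differ in capitals.
CASP1: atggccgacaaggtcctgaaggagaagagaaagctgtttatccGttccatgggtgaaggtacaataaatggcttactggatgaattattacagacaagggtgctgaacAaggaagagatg
CARD16: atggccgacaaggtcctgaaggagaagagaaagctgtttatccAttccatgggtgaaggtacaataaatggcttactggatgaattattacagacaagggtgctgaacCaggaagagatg
They differ at 2 of the 120 positions and, over the 291 coding bases of CARD16, at 8. Of the 50-base words of CASP1, 4.48% also occur in CARD16, so most reads of CASP1 would be its own. CARD16 had 0.251 and 1.47 TPM in NC and 0.435 and 0.977 TPM in sh-ANP32B. It was far below CASP1 in each library, and its groups overlapped.

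The 2 substrates of caspase-1 among the members differed in how far they moved. GSDMD (ENSG00000104518), the pore protein of pyroptosis, lies on chromosome 8. It had 39.0 and 39.2 TPM in NC and 46.7 and 44.9 TPM in sh-ANP32B, a small step with close replicates. The log2 fold change was 0.22, with a 95% interval from 0.08 to 0.37 (limma, adjusted p = 0.0245), which lies wholly inside the fold limit. After median-of-ratios scaling it was 0.13 (limma, adjusted p = 0.122), and with each library left out in turn its adjusted p in limma was between 0.0543 and 0.104. IL18 (ENSG00000150782), the precursor of a cytokine that drives interferon-γ production, lies on the minus strand of chromosome 11 from 112143253 to 112164096. It had 75.6 and 67.2 TPM in NC and 110 and 111 TPM in sh-ANP32B, and the groups lay far apart. The means were 71.4 ± 5.93 TPM (SD, n = 2) and 111 ± 0.58 TPM (SD, n = 2), which is 1.55-fold. The log2 fold change was 0.63, with a 95% interval from 0.46 to 0.79 (limma, adjusted p = 0.00114). IL18 was the member that stayed called with any of the 4 libraries left out, at log2 fold changes from 0.54 to 0.71, and under both scalings.

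**Figure D3:**
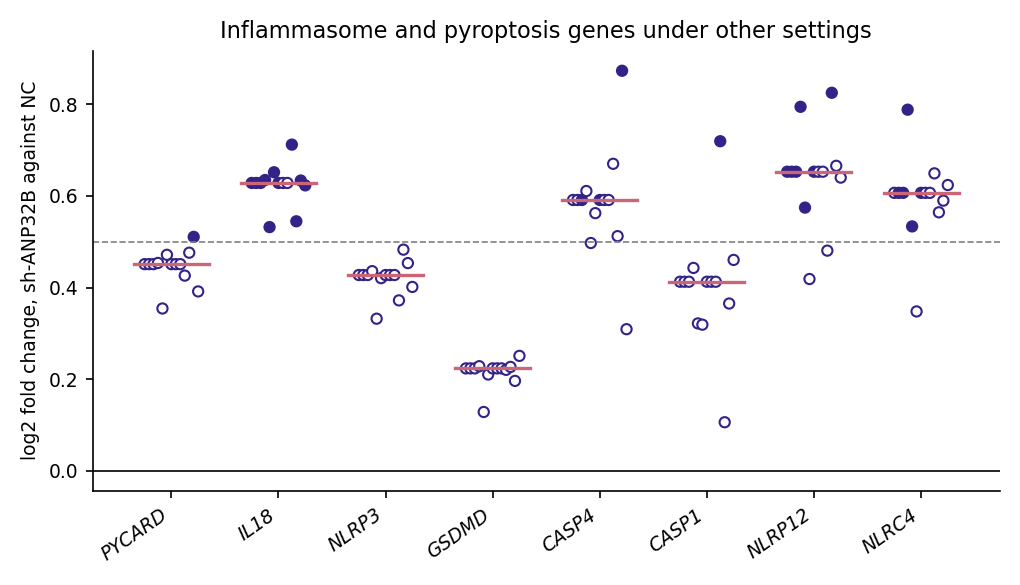
Log2 fold change of the 8 tested genes under 13 other settings, with filled points where the gene was called, a red line at the reported value and a dashed line at 0.5. Every point lies above 0, IL18 stays above 0.5 throughout, and CASP1 ranges from 0.11 to 0.72.

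The other genes of the pathway were read from a list of 61, of which 41 were listed and 39 tested. Of the 39, 19 were called higher and none lower, and the rest were not called. On the adjusted p alone 26 were higher and 1 was lower, against 26.0% and 19.7% of all genes tested, and at an unadjusted p below 0.05 there were 2 lower genes in limma. The shares of all genes tested that were called are those given above for the members. The median log2 fold change of the 39 was 0.47, with a range from -0.39 to 2.42.

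Among 14 other sensors and receptors, 11 were tested and 7 were called higher. MEFV, which encodes the inflammasome sensor pyrin, had 0.90 and 1.27 TPM in NC and 8.77 and 8.37 TPM in sh-ANP32B. NLRP1, a sensor of proteases and of inhibition of DPP9, had 1.01 and 0.791 TPM in NC and 5.37 and 4.70 TPM in sh-ANP32B. Both moved from about 1 TPM to above the sensors NLRC4 and NAIP. In sh-ANP32B NLRP12 had 5.49 and 5.60 TPM, which was below MEFV but above NLRP1. Their log2 fold changes were 2.20 (95% interval 1.77 to 2.64, limma, adjusted p = 4.69e-04) and 1.67 (95% interval 1.20 to 2.14, limma, adjusted p = 0.00145), and neither interval overlapped that of NLRP3. The ratio of NLRP3 to MEFV was 42.0 and 32.2 in NC and 5.95 and 6.47 in sh-ANP32B. IFI16, a DNA sensor of the AIM2 family, had 17.9 and 16.5 TPM in NC and 40.4 and 37.0 TPM in sh-ANP32B, a log2 fold change of 1.13 (limma, adjusted p = 3.77e-04). MNDA (0.69), NOD2 (0.62), NLRC5 (0.61) and CARD8 (0.51) were the other called receptors by log2 fold change. NOD2 was not called without any of the 4 libraries in turn, and after quantile normalization it was at 0.37 (limma, adjusted p = 0.0865). NLRC5 was not called without NC-1, and CARD8 was not without NC-1 or sh-ANP32B-2 nor after median-of-ratios scaling. NOD1, a receptor of bacterial peptidoglycan, had a log2 fold change of -0.25 (limma, adjusted p = 0.0516).

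**Figure D4:**
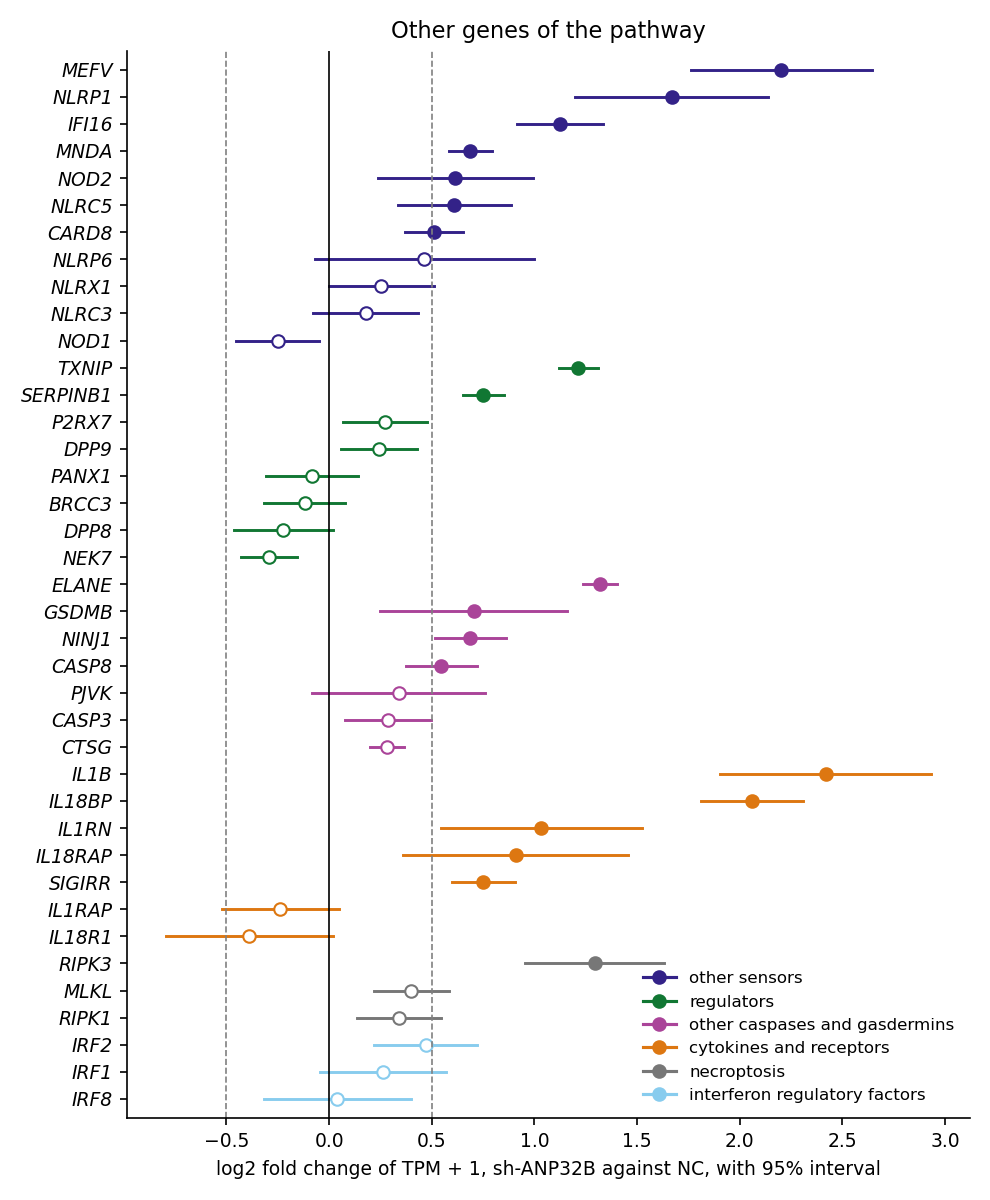
Log2 fold change of TPM + 1, sh-ANP32B against NC, for the 39 tested genes of the other lists, coloured by list, with limma's 95% interval as a line and filled points for called genes. Filled points lie right of the dashed line at 0.5 and reach 2.42 for IL1B, and no filled point lies left of 0.

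Among 17 regulators of inflammasomes, 8 were tested and 2 were called higher. TXNIP, which binds NLRP3 under oxidative stress, had 103 and 103 TPM in NC and 241 and 241 TPM in sh-ANP32B, a log2 fold change of 1.21 (limma, adjusted p = 6.52e-05). SERPINB1, an inhibitor of neutrophil serine proteases and of caspase-1 activation, had a log2 fold change of 0.75 (limma, adjusted p = 1.81e-04). NEK7, the kinase that NLRP3 binds when it assembles, moved the other way. It had 49.1 and 48.5 TPM in NC and 40.1 and 39.1 TPM in sh-ANP32B, a log2 fold change of -0.29 (limma, adjusted p = 0.0087), inside the fold limit. Its transcript was above that of NLRP3 in NC and below it in sh-ANP32B.

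Among 11 other caspases, gasdermins and partners, 7 were tested and 4 were called higher. ELANE, neutrophil elastase, which can cut gasdermin D, had 666 and 652 TPM in NC and 1636 and 1656 TPM in sh-ANP32B, a log2 fold change of 1.32 (limma, adjusted p = 5.07e-05). NINJ1, which ruptures the membrane late in lytic death, had 35.5 and 39.2 TPM in NC and 62.2 and 59.3 TPM in sh-ANP32B, a log2 fold change of 0.69 (limma, adjusted p = 0.00101). Both had groups that lay far apart. GSDMB had a log2 fold change of 0.70, but it was not called without NC-1 or without sh-ANP32B-2. CASP8 had one of 0.55, and it was 0.45 and not called after median-of-ratios scaling.

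Of 12 cytokine and receptor genes, 7 were tested and 5 were called higher, and the natural antagonists were among them. IL18BP, the secreted protein that binds and neutralises IL-18, had 5.08 and 5.53 TPM in NC and 25.3 and 25.2 TPM in sh-ANP32B. Its log2 fold change of 2.06 (95% interval 1.81 to 2.31, limma, adjusted p = 1.45e-04) did not overlap the interval of IL18. The ratio of IL18 to IL18BP was chosen after the values were seen, and it was 14.9 and 12.2 in NC and 4.36 and 4.41 in sh-ANP32B. The mean log2 ratio differed by -1.62, which is given as a description without a test. IL1RN, the antagonist of the IL-1 receptor, had 3.80 and 3.87 TPM in NC and 10.8 and 7.35 TPM in sh-ANP32B, a log2 fold change of 1.03 (limma, adjusted p = 0.00911). SIGIRR, an inhibitory receptor of the same family, was higher by 0.75 on the log2 scale (limma, adjusted p = 5.06e-04). IL1B, the other main cytokine that caspase-1 matures, had 0.0408 and 0.226 TPM in NC and 5.02 and 5.06 TPM in sh-ANP32B. Its log2 fold change of 2.42 (limma, adjusted p = 5.70e-04) rests on the pseudocount of 1, since the NC values are near 0. IL18RAP, a chain of the IL-18 receptor, had a log2 fold change of 0.91 (limma, adjusted p = 0.0205) and was not called without NC-1 or without NC-2 nor after quantile normalization. IL18R1, the other chain, had a log2 fold change of -0.39 (limma, adjusted p = 0.104).

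**Figure D5:**
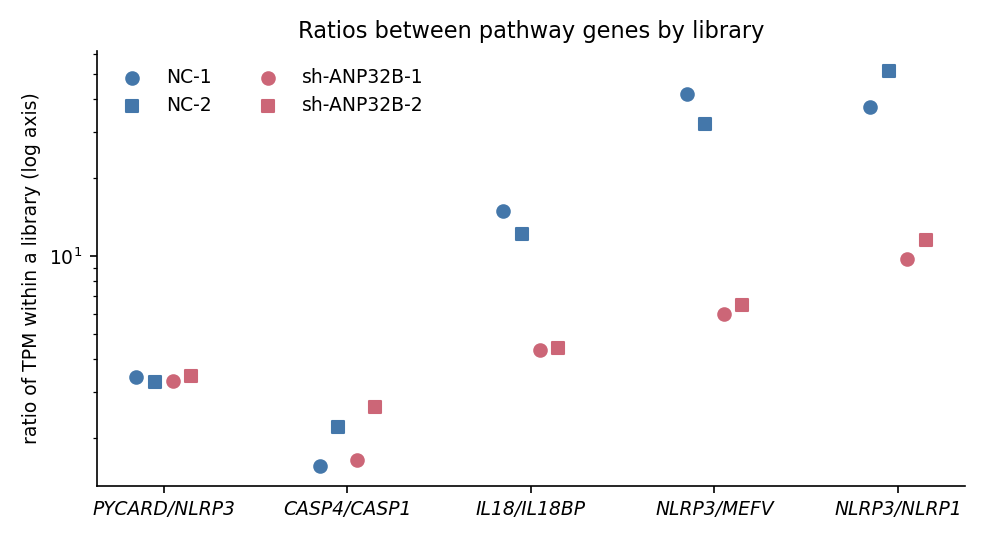
Ratios of TPM within each library on a log axis for 5 pairs of genes, with blue points for NC and red points for sh-ANP32B (circles for replicate 1, squares for replicate 2). PYCARD/NLRP3 stays between 3.27 and 3.46 in all libraries, whereas IL18/IL18BP lies at 14.9 and 12.2 in NC and at 4.36 and 4.41 in sh-ANP32B.

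Monocyte markers moved in the same direction as the members and, by their median, by more. Of 12 such markers, 9 were listed and tested, and 8 were called higher, where 17.9% of all genes tested were. CSF1R was the exception, with a log2 fold change of 0.56 (limma, adjusted p = 0.0828), which is within the range of the members. The median log2 fold change of the 9 markers was 2.41, beside 0.52 for the members. Their summed level was between 525 and 531 TPM in NC and between 5573 and 5625 TPM in sh-ANP32B, most of it LYZ. None was at 0 in any library, while CD14, VCAN and CD163 were not analysed here. Of 4 neutrophil granule markers, ELANE among them, 2 were called higher, and their summed level was between 2512 and 2544 TPM in NC and between 3884 and 3986 TPM in sh-ANP32B. The part of these markers in the rise of inflammasome transcripts was not tested.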

How the data were processed

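The authors aligned reads to hg38 with HISAT2 (version 2.0.5) and deposited a table of expression values by gene. The unit is unnamed and was taken as TPM from the values, which are not whole and sum to between 997271 and 998546 in each library. The tool, annotation and strand setting behind the deposited TPM are not given in the sources used here. The listed genes have a mean of at least 0.500 TPM. Of 18885 identifiers, 17290 were matched to symbols. Positions come from GENCODE version 44 on hg38.

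limma (version 3.58.1, R 4.3.3) was run on log2(TPM + 1) without a block (lmFit, then eBayes with trend). A gene was tested if 2 or more libraries reached 1 TPM, which left 16937, and Benjamini-Hochberg adjustment covered them all. The study called genes with DESeq2, which needs counts and was not run. A call needed an adjusted p below 0.05 together with a log2 fold change past 0.5 in either direction. All members, ANP32B and the genes of the lists were open to naming, and the members and lists were chosen with earlier results of these data known. On simulated data for this comparison, with 16937 genes and 200 of them changed by 1 on the log2 scale, 125 were recovered and 7 unchanged genes were called. The alternatives run were the replicate block, other filters, a pseudocount of 0.1, both scalings, calls on the unadjusted p, calls past a fold limit of 1, the treat test of limma, and leaving out each library. Words of 50 bases were compared between all annotated transcripts on both strands. The motif search left out the promoters of CASP1, NAIP, GSDMD and IL18, and whether the reference holds them is not stated here. Python 3.11.15 with pandas 2.3.3 and matplotlib 3.10.9 was used. The values of 1 marker list are not reported here.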

Additional observations from a re-analysis of the deposited data

How the results depend on the processing

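The log2 fold changes of the 8 tested members were positive in all 56 values from the 7 alternatives that give another estimate. The other 6 change only the genes tested, the error or the call, so their 48 values keep the reported estimate and could not turn. Of the 104 values, 26 lost the call and 2 gained it. The number of members called higher, 4 on the TPM as deposited, was 2 with the replicate number as a block, 1 after quantile normalization, and 0 both with a fold limit of 1 and in limma's treat test against 0.5. Leaving out each of the 4 libraries gave between 1 and 3. Under the block NLRC4 and CASP4 lost their calls (adjusted p = 0.0551 and 0.0632 from limma), and the deviations of same-numbered libraries had a correlation of -0.0232, so the numbers do not show a pairing. CASP4 also lost its call without the filter (limma, adjusted p = 0.051) and with a pseudocount of 0.1 (limma, adjusted p = 0.0508). The other pathway genes called higher fell from 19 to 9 with a fold limit of 1 and to 11 in the treat test, and 1 pathway gene, IL18R1, was called lower after quantile normalization. Over all genes, 3024 were called higher and 1712 lower, against 1136 and 273 with a fold limit of 1 and 950 and 481 in the treat test. Lower genes made up 36.1% of the calls, 48.9% after median-of-ratios scaling and 49.8% after quantile normalization. Quantile normalization moved the median of all genes by -0.11 on the log2 scale, and the cause was not tested. TPM keep no depth, so low genes such as NLRC4 and NAIP cannot be given a counting error, and 2 libraries a group limit every interval.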

Other observations

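Genes of necroptosis, a lytic death that does not need caspase-1, were read beside the members. Of ZBP1, RIPK1, RIPK3 and MLKL, 3 were listed and ZBP1 was not analysed here. RIPK3, the kinase that licenses this death, had 10.3 and 7.90 TPM in NC and 23.0 and 24.1 TPM in sh-ANP32B, a log2 fold change of 1.29 (limma, adjusted p = 0.0011). It was called under each of the 13 alternatives. MLKL, which permeabilises the membrane, had a log2 fold change of 0.40 (limma, adjusted p = 0.00804), and RIPK1, its upstream kinase, had one of 0.34 (limma, adjusted p = 0.0204), both inside the fold limit of 0.5.

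Among interferon regulatory factors, which are known to control several inflammasome genes, IRF8 had 291 and 315 TPM in NC and 266 and 364 TPM in sh-ANP32B. Its groups overlapped, with a log2 fold change of 0.04 and a 95% interval from -0.32 to 0.40 (limma, adjusted p = 0.846). IRF2, known to drive GSDMD, had a log2 fold change of 0.47 (limma, adjusted p = 0.0135), and it was 0.60 without sh-ANP32B-2 and 0.35 without sh-ANP32B-1. IRF1 had a log2 fold change of 0.26 (limma, adjusted p = 0.137).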
